A study of Mus musculus with 11 samples.

Results

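The 10 genes described here encode subunits of Polycomb repressive complex 2 (PRC2): Ezh1, Ezh2, Eed, Suz12, Rbbp7, Jarid2, Aebp2, Mtf2, Phf1 and Phf19. They were chosen by name, as the rows of the expression table that carry these symbols, and make up 10 of its 23288 different symbols. PRC2 places methyl groups on lysine 27 of histone H3, and its trimethylated product, H3K27me3, marks repressed developmental genes in embryonic stem cells (ESCs). Either EZH2 or EZH1 is the catalytic subunit. EED and SUZ12 complete the enzyme, and the histone chaperone RBBP7 or its close relative RBBP4 joins them. Accessory subunits define alternative forms. PRC2.1 holds 1 of the Polycomb-like (PCL) proteins PHF1, MTF2 or PHF19, and PRC2.2 holds JARID2 and AEBP2. H3K27me3 can be bound by the chromodomain of some CBX proteins, CBX7 among them. The Polycomb CBX proteins, such as CBX6 and CBX7, belong to Polycomb repressive complex 1 (PRC1) together with the ubiquitin ligase RING1B.

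All cells were mouse ESCs of the E14Tg2A line, grown without feeder cells in serum and leukemia inhibitory factor. RNA-seq was carried out on 2 libraries of ESCs infected with a lentivirus carrying a control short hairpin RNA (shCtl) and 2 libraries of ESCs infected with one against Cbx6 (shCbx6). Which of the hairpins against Cbx6 was used for each library is not stated in the sources used here. ChIP-seq peaks came from 2 replicates of anti-HA ChIP in ESCs with a 3×HA tag added to the endogenous CBX6, and from 1 ChIP each for CBX7 and RING1B in E14Tg2A ESCs without the tag. The peak lists are from cells with CBX6, so no list shows occupancy after knockdown, and the control ChIPs were not analysed here.

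The knockdown was visible in the targeted gene. Cbx6 was at 17.4 and 14.9 FPKM (fragments per kilobase of transcript, corrected for how many fragments each library mapped) in the shCtl libraries and at 9.53 and 5.40 in the shCbx6 libraries, a log2 fold change of -1.06 (SE 0.263, limma adjusted p = 0.247). The libraries correlated with each other at 0.936 to 0.963 on the log2(FPKM + 1) scale, and between 11116 and 11325 genes reached 1 FPKM in each. Relative to shCtl replicate 1, the depth of the other libraries was 0.957 to 1.13. In both groups the cells carried ESC markers, with 10 of 10 tested and a summed level of 7803 and 8899 FPKM in shCtl and 7153 and 6110 in shCbx6. Dppa5a made up most of these sums, with 4580 and 5397 FPKM in shCtl and 4544 and 3601 in shCbx6. Of these 10, 7 were lower in both shCbx6 libraries than in both shCtl libraries (24.4% of all genes tested), 1 was higher in both (18.9%), 4 were lower by at least 1.5-fold in mean FPKM (6.56%), and 0 passed an adjusted p of 0.05. Trophectoderm markers were low, but their sum over 6 genes was 2.98 and 2.5 FPKM in shCtl, 8.40 in shCbx6 replicate 1 and 20.9 in shCbx6 replicate 2. No trophectoderm marker was at 0 in all libraries. Tfap2c was at 2.84 and 2.21 FPKM in shCtl and 7.41 and 9.04 in shCbx6, and Krt7 and Hand1 reached a mean of 1 FPKM in shCbx6 only. Both means came from shCbx6 replicate 2 (9.02 FPKM for Krt7, 1.8 for Hand1), as replicate 1 was at 0.549 and 0.205 FPKM. Fibroblast markers summed to 4.76 FPKM over 8 genes (Lum at 0) in shCbx6 replicate 2 and to 1.52 to 1.95 FPKM in the other libraries, mostly through Thy1 (3.82 FPKM in that library, 1.16 to 1.68 in the others). The same library had the highest sum of primitive endoderm markers (2.73 FPKM over 7 genes, 1.84 to 2.18 in the others), of which Dab2 alone gave 1.67 FPKM (0.576 to 0.699 in the others) while the other genes of the list together were not higher there. Mesoderm markers summed to 3.02 FPKM over 5 genes in it and to 1.76 to 2.63 in the others. The 5 neuroectoderm markers summed to 46.4 and 40.2 FPKM in shCtl and 33.9 and 27.3 in shCbx6. Of the 5, 1 passed an adjusted p of 0.05 (Mapt, lower), against 0.0949% of all genes tested. The markers did not move one way, and their sum is mostly Tubb3 (35.2 and 29.1 FPKM in shCtl, 25.4 and 21.0 in shCbx6). Mapt and Sox1 were lower by at least 1.5-fold (6.56% of all genes). Pax6 and Nes were higher by 3.59 and 3.49 times without passing the adjusted p (7.63% of all genes were higher by at least 1.5-fold). Pax6 was at 1.47 and 0.569 FPKM in shCtl and 5.51 and 1.82 in shCbx6. Nes was at 0.673 and 0.72 FPKM in shCtl and 1.59 and 3.27 in shCbx6. Among the 5 markers, Mapt, Sox1 and Nes reached a mean of 1 FPKM only in the group where they were higher. In these bulk samples, fewer cells of a type and less RNA per cell cannot be told apart.

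To ask whether the PRC2 genes themselves carry the chromatin proteins of this study, the peaks of the 4 lists were placed on the 10 genes, from 2.5 kb upstream of the start to the transcription end. Phf19 was the sole member with peaks of CBX7 and RING1B, and both lay over its transcription start. Mtf2 was the sole member with a CBX6 peak in both replicates. Ezh2 carried the member peak with the highest score in the CBX6 replicate 1 list, and Rbbp7 carried no peak in any list. The stretches upstream of these 4 starts are shown for that reason. They are from mouse genome build mm9, written on the strand of the gene and without the gene's annotated exons, with each CG dinucleotide, the substrate of DNA methylation and the hallmark of CpG islands, in capitals. The Phf19 stretch (chr2:34769547-34769796, minus strand) lies under the CBX7 and RING1B peaks. The Mtf2 stretch (chr5:108494463-108494692, plus strand) lies under peaks of both CBX6 replicates. The Ezh2 stretch (chr6:47545030-47545182, minus strand) lies under a peak of CBX6 replicate 1, between an exon of a longer isoform and the start, and the Rbbp7 stretch (chrX:159198034-159198333, plus strand) under none.
Phf19: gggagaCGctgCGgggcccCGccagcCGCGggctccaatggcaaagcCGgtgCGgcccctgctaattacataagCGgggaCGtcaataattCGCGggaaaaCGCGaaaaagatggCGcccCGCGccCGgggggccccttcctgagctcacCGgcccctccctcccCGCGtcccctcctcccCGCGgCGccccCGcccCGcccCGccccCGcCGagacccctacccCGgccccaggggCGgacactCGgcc
Mtf2: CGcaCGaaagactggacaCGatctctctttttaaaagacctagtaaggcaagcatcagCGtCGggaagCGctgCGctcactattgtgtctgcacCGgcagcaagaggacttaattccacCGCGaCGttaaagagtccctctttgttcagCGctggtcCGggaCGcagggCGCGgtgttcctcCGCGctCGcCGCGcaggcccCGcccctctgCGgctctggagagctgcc
Ezh2: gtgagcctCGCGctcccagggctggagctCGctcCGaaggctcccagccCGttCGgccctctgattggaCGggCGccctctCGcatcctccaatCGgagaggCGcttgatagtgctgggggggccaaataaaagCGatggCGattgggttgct
Rbbp7: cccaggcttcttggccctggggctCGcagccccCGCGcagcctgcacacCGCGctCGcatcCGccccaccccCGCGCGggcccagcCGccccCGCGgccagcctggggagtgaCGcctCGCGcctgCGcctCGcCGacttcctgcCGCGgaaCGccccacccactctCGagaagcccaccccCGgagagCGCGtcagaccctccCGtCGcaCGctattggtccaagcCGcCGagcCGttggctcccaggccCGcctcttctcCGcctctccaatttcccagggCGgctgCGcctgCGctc
The printed stretches held 31 CG dinucleotides in 250 bases at Phf19, 23 in 230 at Mtf2, 13 in 153 at Ezh2 and 37 in 300 at Rbbp7. The Rbbp7 stretch, without a peak, was therefore as rich in CG as the Phf19 stretch with CBX7 and RING1B.

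Over the full 300 bases before the transcription start, all members except Jarid2 had more CG dinucleotides than the median of 10 over 21946 genes. Aebp2 had 50, Suz12 42, Phf19 and Rbbp7 37 each, Mtf2 31, Ezh2 26, Phf1 24, Eed 18 and Ezh1 17. Jarid2 had 8, and its 300 bases were 46.7% G or C, against a median of 54.0%. Short motifs were counted in the same windows on both strands. The CCAAT box (CCAAT) was present in 6 of 10 members, against 39.1% of all windows, and the GC box (GGGCGG) in 6 of 10, against 42.7%. An E2F-type motif (any of TTTCCCGC, TTTCGCGC, TTTGCCGC and TTTGGCGC) was present in 3 members, Suz12, Mtf2 and Phf19, against 2.63% of all windows. At Phf19 it lies in the stretch printed above, as the reverse complement of TTTCCCGC, and at Mtf2 in the annotated exon after the printed stretch. These matches describe letters in the windows and not occupied sites.

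The CBX6 replicate 1 list held 21865 peaks and the replicate 2 list 5103, against 5081 for CBX7 and 4180 for RING1B. With the replicate 1 list, 9 of 10 members had a CBX6 peak, all except Rbbp7. Of all 21951 genes with coordinates, 56.9% had one, and of the 10958 that reached 1 FPKM in shCtl, 79.5% had one. With the replicate 2 list, 1 of 10 members had a CBX6 peak, against 16.6% of all genes and 12.0% of expressed genes. CBX7 peaks were found at 1 of 10 members, against 17.9% of all genes and 11.5% of expressed genes, and RING1B peaks at 1 of 10, against 16.1% and 9.53%. The members' shares were near those of expressed genes in each list.

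**Figure D1:**
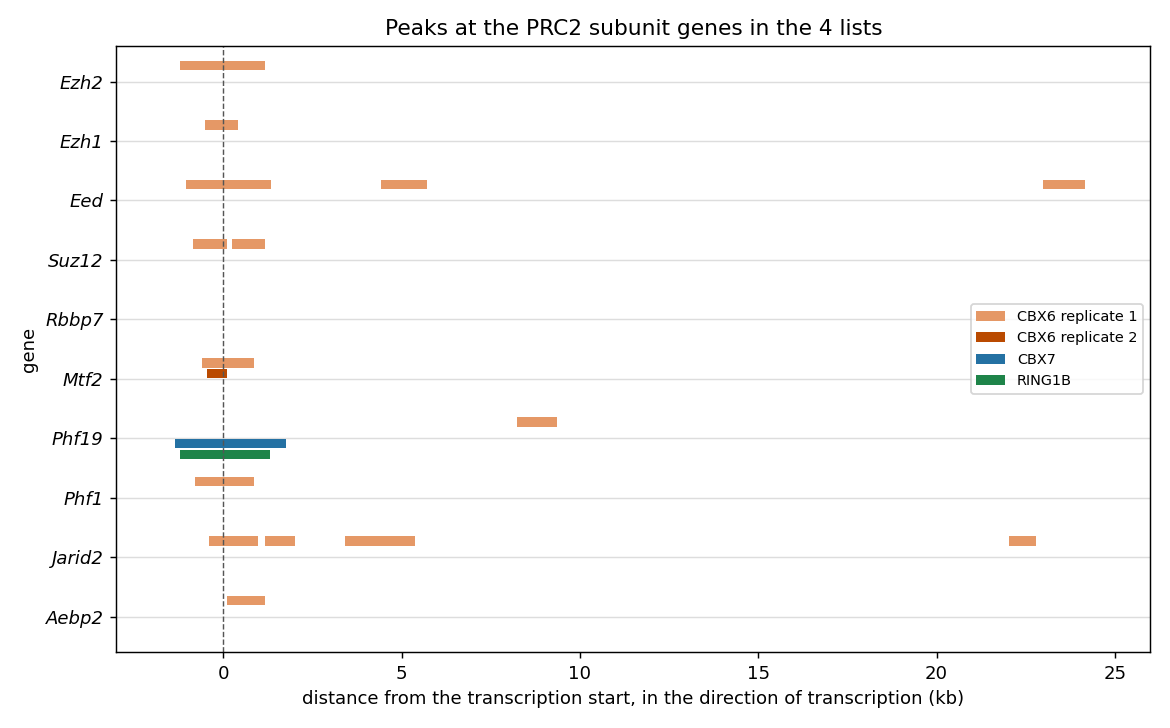
Peaks of the 4 lists at the 10 PRC2 genes, plotted by distance in kb from each gene's transcription start in the direction of transcription, with 1 bar for each peak coloured by list. Blue and green bars (CBX7 and RING1B) appear at Phf19 alone, 8 genes have a CBX6 replicate 1 peak at or just after the start, Phf19 has its CBX6 peak about 9 kb inside the gene, and Rbbp7 has no bar.

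Phf19 encodes a PCL protein whose Tudor domain binds methylated H3K36. The gene lies at chr2:34749277-34769546 on the minus strand. Its CBX7 peak (chr2:34767738-34770859, score 645.72) and its RING1B peak (chr2:34768182-34770704, score 818.09) overlapped each other and the transcription start. In their lists, 66.7% of CBX7 peaks and 64.7% of RING1B peaks scored no higher, so both were ordinary in score. The only CBX6 peak in the gene (chr2:34760150-34761254, replicate 1, score 109.61) was in an intron, 8794 bp downstream of the start, and did not overlap them. It was centred at -275 bp from another annotated start of Phf19, inside the gene. The same combination of a CBX6 replicate 1, a CBX7 and a RING1B peak without a CBX6 replicate 2 peak was found at 300 genes, 1.37% of all. A long intergenic RNA gene on the other strand, Gm13448 (chr2:34768391-34771534), overlaps Phf19 by 1156 bp and also starts inside the CBX7 and RING1B peaks, so the peaks cannot be assigned to 1 of the 2 genes.

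Mtf2, the PCL gene with the highest level in these ESCs, lies at chr5:108494693-108538023 on the plus strand. Its CBX6 peak scored 140.64 in replicate 1 (chr5:108494157-108495636) and 51.22 in replicate 2 (chr5:108494316-108494883), and the narrower peak lay within the wider one. The replicate 2 peak was close to the lowest score of that list, since 117 of 5103 peaks scored lower. Peaks in both CBX6 lists without a CBX7 or RING1B peak were found at 464 genes, 2.11% of all and 3.43% of expressed genes. The third PCL gene, Phf1 (chr17:27070072-27074835, plus strand), had a CBX6 replicate 1 peak over its start (chr17:27069270-27070927, score 155.29). Its nearest RING1B and CBX7 peaks lay 7994 and 8055 bp beyond the transcription end.

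Among the core genes, Ezh2 (chr6:47480273-47545340, minus strand) had a CBX6 replicate 1 peak centred 17 bp upstream of its start (chr6:47543853-47546240, score 333.77), and 97.2% of the peaks in that list scored no higher. The Ezh1 peak was at the other end of the scale. At Ezh1 (chr11:101052429-101087777, minus strand) the CBX6 peak over the start (chr11:101087373-101088300) scored 50.33, and 132 of 21865 peaks scored lower. Eed (chr7:97103166-97129493, minus strand) had 3 peaks, 1 over the start (chr7:97128142-97130538, score 223.75) and 2 in introns with scores of 79.88 and 88.17. Suz12 (chr11:79806608-79847625, plus strand) had a peak over the start (chr11:79805763-79806728, score 102.83) and a lower one just inside the gene (score 50.89). All of these were in the replicate 1 list alone, a pattern shared by 38.1% of all genes and 64.0% of expressed genes. Rbbp7 (chrX:159198334-159217024, plus strand) had no peak in the window, and the nearest CBX6 replicate 1 peak lay 3854 bp upstream of the gene (chrX:159193712-159194480, score 81.5).

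The PRC2.2 genes also had CBX6 peaks in replicate 1 alone. Jarid2 (chr13:44824843-45017012, plus strand), whose protein is a JmjC family member without demethylase activity, had 4. One covered the transcription start (chr13:44824511-44825883, score 141.95) and the others were in introns. Of these, the peaks scoring 82.67 and 70.75 were centred at -144 and -106 bp from other annotated starts of Jarid2, and the peak scoring 135.84 was 17913 bp from the nearest start. Aebp2 (chr6:140570970-140626993, plus strand), which encodes a zinc finger protein, had a single peak just after its start (chr6:140572321-140573392, score 63.33) centred in a coding exon. With peaks scoring at least 100 only, the members with a CBX6 peak were 7 in replicate 1 (38.2% of all genes and 54.8% of expressed genes) and 0 in replicate 2 (11.4% and 5.86%). Phf19 was still the 1 member with a CBX7 peak (14.9% and 8.23%) and a RING1B peak (13.6% and 6.99%).

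The transcript levels of the members were compared next, first within the shCtl ESCs, since FPKM is scaled to transcript length and allows different genes to be set side by side. Rbbp7 (139 and 166 FPKM) and Eed (142 and 159 FPKM) were at the top and their values overlapped. Mtf2 came next with 104 and 99.3 FPKM, separate from both Eed above and Suz12 below. Suz12 (78.0 and 83.2 FPKM), Jarid2 (86.4 and 71.6 FPKM) and Ezh2 (71.0 and 86.3 FPKM) could not be ordered, because their library values overlapped. Aebp2 was at 31.8 and 34.1 FPKM and Ezh1 at 7.61 and 8.72 FPKM. Phf19 (2.36 and 3.37 FPKM) and Phf1 (2.99 and 1.96 FPKM) had the lowest values and overlapped each other. The range from Phf1 to Rbbp7 ran from the level that exceeds 16.6% of the 11592 genes tested to the level that exceeds 94.8%. All 10 members passed the limit of a mean of 1 FPKM in either group.

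**Figure D2:**
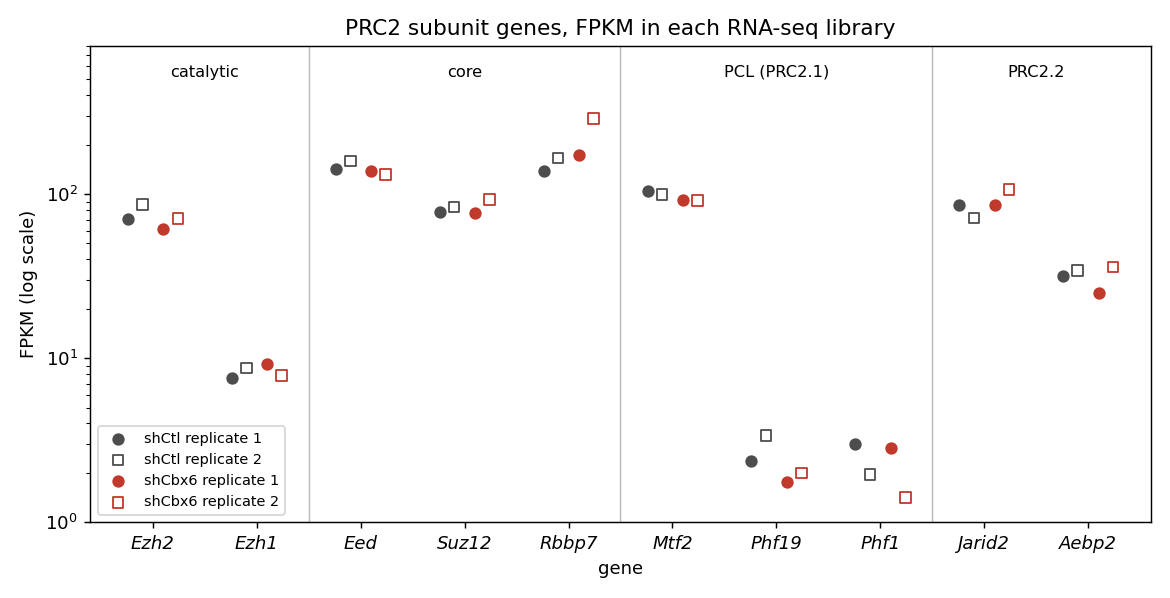
FPKM of the 10 PRC2 genes (log scale) in each RNA-seq library, with filled circles for replicate 1 and open squares for replicate 2, dark for shCtl and red for shCbx6, ordered by the role of the subunit. Rbbp7, Eed and Mtf2 are the top 3 in shCtl, Phf1 and Phf19 lie between 1.41 and 3.37 FPKM, and Rbbp7 reaches 288 FPKM in shCbx6 replicate 2, above the 139 to 172 FPKM of the other libraries.

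Phf19 was then set beside the genes that share its peaks. The 3205 genes with both a CBX7 and a RING1B peak had a median of 0.182 FPKM in shCtl, and 26.5% of them reached 1 FPKM. At a mean of 2.87 FPKM, Phf19 exceeded 86.1% of them. Genes with a CBX6 replicate 1 peak alone, the pattern of 7 members, had a median of 11.1 FPKM, and those with the Mtf2 pattern had one of 7.77 FPKM. Genes without a peak in any list had a median of 0.0062 FPKM, and 23.8% of them reached 1 FPKM. Rbbp7, which also has none, was at a mean of 153 FPKM. Of expressed genes, 19.1% had no peak in any list. Levels and peaks are given here as a description.

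The knockdown comparison asked whether the PRC2 genes changed when Cbx6 was depleted. None of the 10 members passed an adjusted p of 0.05 in limma across the 11592 genes tested, where 11 genes (0.0949%) did, and 0 of 10 were under an unadjusted p of 0.05, against 11.7% of all genes. The members' adjusted p ranged from 0.499 to 0.932. With shCbx6 against shCtl, 4 members had a higher and 6 a lower estimate, and their median log2 fold change was -0.14, against -0.01 over all genes tested. In mean FPKM, 1 member was higher by at least 1.5-fold (Rbbp7; 7.63% of all genes) and 1 was lower by at least 1.5-fold (Phf19; 6.56% of all genes). The libraries of the groups did not overlap for 1 member with higher values (Rbbp7; 18.9% of all genes) and for 3 with lower values (Eed, Mtf2 and Phf19; 24.4% of all genes). These counts are close to what the background shares give for 10 genes. With 2 libraries a group, an exact permutation test of a single gene cannot reach a p of 0.05.

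**Figure D3:**
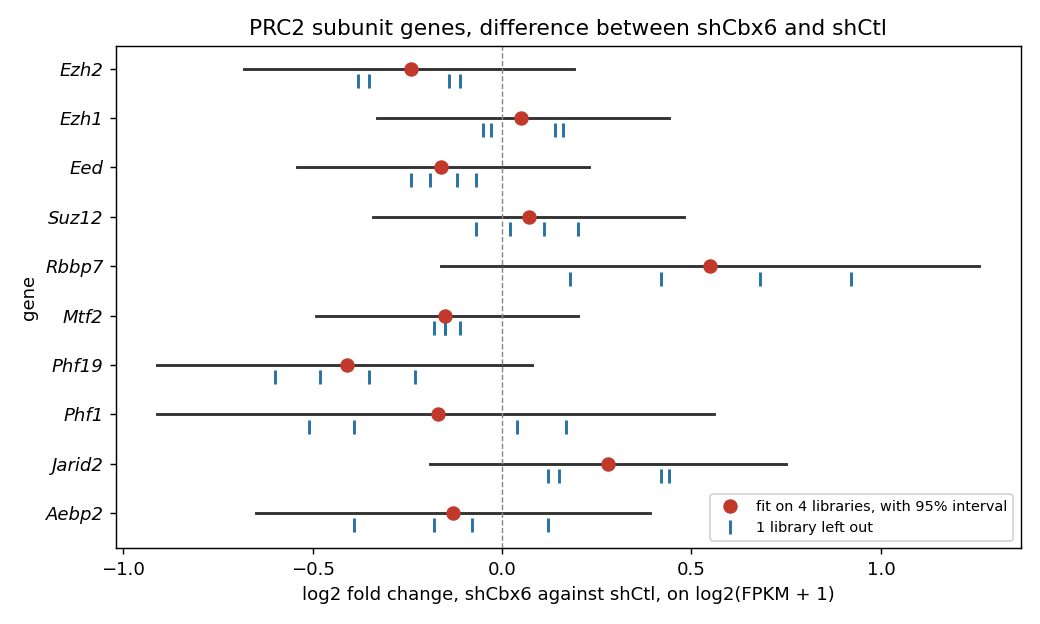
Log2 fold change of shCbx6 against shCtl on the log2(FPKM + 1) scale for the 10 PRC2 genes, with red points for the limma estimate, lines for its 95% confidence interval and blue ticks for the estimates with 1 library left out. All 10 intervals include 0, Rbbp7 (0.55) and Phf19 (-0.41) have the estimates farthest from 0, and the ticks of Ezh1, Suz12, Aebp2 and Phf1 fall on both sides of 0.

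Of the catalytic subunits, Ezh2 was at 71.0 and 86.3 FPKM in shCtl and 61.2 and 71.0 in shCbx6, and the groups met at 71.0. Its mean went from 78.7 ± 10.8 to 66.1 ± 6.96 FPKM (SD, n = 2), a log2 fold change of -0.24 with a 95% interval of -0.68 to 0.19 (adjusted p = 0.655). Ezh1, which encodes the catalytic subunit with weaker methyltransferase activity that is known to prevail in cells that no longer divide, was at 7.61 and 8.72 FPKM in shCtl and 9.24 and 7.82 in shCbx6. These values overlapped, with a log2 fold change of 0.05 (interval -0.33 to 0.44, adjusted p = 0.932).

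Eed, whose protein binds H3K27me3 and stimulates the enzyme, was at 142 and 159 FPKM in shCtl and 138 and 132 in shCbx6. Both shCbx6 values were below both shCtl values, but the difference did not pass the test, with a log2 fold change of -0.16 (interval -0.54 to 0.23, adjusted p = 0.759). Suz12, the scaffold of the complex, was at 78.0 and 83.2 FPKM in shCtl and 76.6 and 93.0 in shCbx6. Its shCbx6 libraries lay on either side of the shCtl pair, with a log2 fold change of 0.07 (interval -0.34 to 0.48, adjusted p = 0.921).

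Rbbp7 had the highest estimate of the 10. It was at 139 and 166 FPKM in shCtl, 172 in shCbx6 replicate 1 and 288 in shCbx6 replicate 2, so that replicate 1 was near the shCtl libraries and replicate 2 far above them. The means were 153 ± 19.5 and 230 ± 82.2 FPKM (SD, n = 2), a ratio of 1.51, with a log2 fold change of 0.55 (interval -0.16 to 1.26, adjusted p = 0.535). The ratio was 1.13 without shCbx6 replicate 2, 1.89 without shCbx6 replicate 1 and 1.38 without shCtl replicate 1, and it was 1.49 after median-of-ratios scaling, under the 1.5-fold limit. shCbx6 replicate 2 was also the library with the highest sum of trophectoderm markers (20.9 FPKM), the lowest sum of ESC markers (6110 FPKM, mostly Dppa5a) and the lowest Cbx6 level (5.40 FPKM, against 9.53 in shCbx6 replicate 1), and the part of each in the Rbbp7 value was not tested. The paralog Rbbp4 was at 125 and 163 FPKM in shCtl and 120 and 156 in shCbx6, with a log2 fold change of -0.06 (adjusted p = 0.947). Rbbp7 and Rbbp4 are similar in sequence, so reads of one can be lost or misplaced where they match, and Rbbp7 overlaps Txlng on the other strand by 174 bp.

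Within PRC2.1, Mtf2 was at 104 and 99.3 FPKM in shCtl and 91.7 and 91.6 in shCbx6. This pair was lower and nearly identical, but the log2 fold change was -0.15 (interval -0.49 to 0.20, adjusted p = 0.753). Phf19 was at 2.36 and 3.37 FPKM in shCtl and at 1.76 and 2.00 in shCbx6. Its means were 2.87 ± 0.712 and 1.88 ± 0.17 FPKM (SD, n = 2), which is 1.53-fold lower in shCbx6, and the log2 fold change was -0.41 (interval -0.91 to 0.08). It had the lowest adjusted p of the members, 0.499, and did not pass the test. The fold by which it was lower was 1.26 without shCtl replicate 2 and 1.43 without shCbx6 replicate 1, both under the limit, and 1.79 and 1.63 without the other libraries. Phf1 was at 2.99 and 1.96 FPKM in shCtl and 2.85 and 1.41 in shCbx6. For Phf1 the replicates of a group differed more than the groups, with a log2 fold change of -0.17 (interval -0.91 to 0.56, adjusted p = 0.875).

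Within PRC2.2, Jarid2 was at 86.4 and 71.6 FPKM in shCtl and 85.9 and 107 in shCbx6. shCbx6 replicate 1 fell among the shCtl values and replicate 2 above them, with a log2 fold change of 0.28 (interval -0.19 to 0.75, adjusted p = 0.629). As for Rbbp7, the higher value came from shCbx6 replicate 2, the library with the highest sum of trophectoderm markers and the lowest Cbx6 level, and the part of each in the Jarid2 value was not tested. Without that library the ratio of means was 1.09, against 1.22 with it. Aebp2 was at 31.8 and 34.1 FPKM in shCtl and 24.9 and 36 in shCbx6. Again, the knockdown libraries lay on either side of the shCtl pair, with a log2 fold change of -0.13 (interval -0.65 to 0.39, adjusted p = 0.859).

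The balance between alternative subunits was then read within each library, where the scaling of the library cancels out. Because the 9 ratios computed share genes, with the share of Ezh1 restating the ratio of Ezh2 to Ezh1, and have 2 values a group, they are given without a test. Ezh2 exceeded Ezh1 in FPKM by 9.33 and 9.89 times in shCtl and by 6.62 and 9.09 times in shCbx6, so that Ezh1 made up 9.68% and 9.18% of the catalytic transcripts in shCtl and 13.1% and 9.91% in shCbx6. Mtf2 made up nearly all of the PCL transcripts, from 94.9% to 96.4% in the 4 libraries. The PCL genes together were at 0.924 and 0.989 times the sum of Jarid2 and Aebp2 in shCtl, and at 0.869 and 0.664 times in shCbx6. The ratio of Mtf2 to Jarid2 was 1.20 and 1.39 in shCtl and 1.07 and 0.856 in shCbx6. That of Jarid2 to Aebp2 was 2.72 and 2.1 in shCtl and 3.45 and 2.98 in shCbx6.

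**Figure D4:**
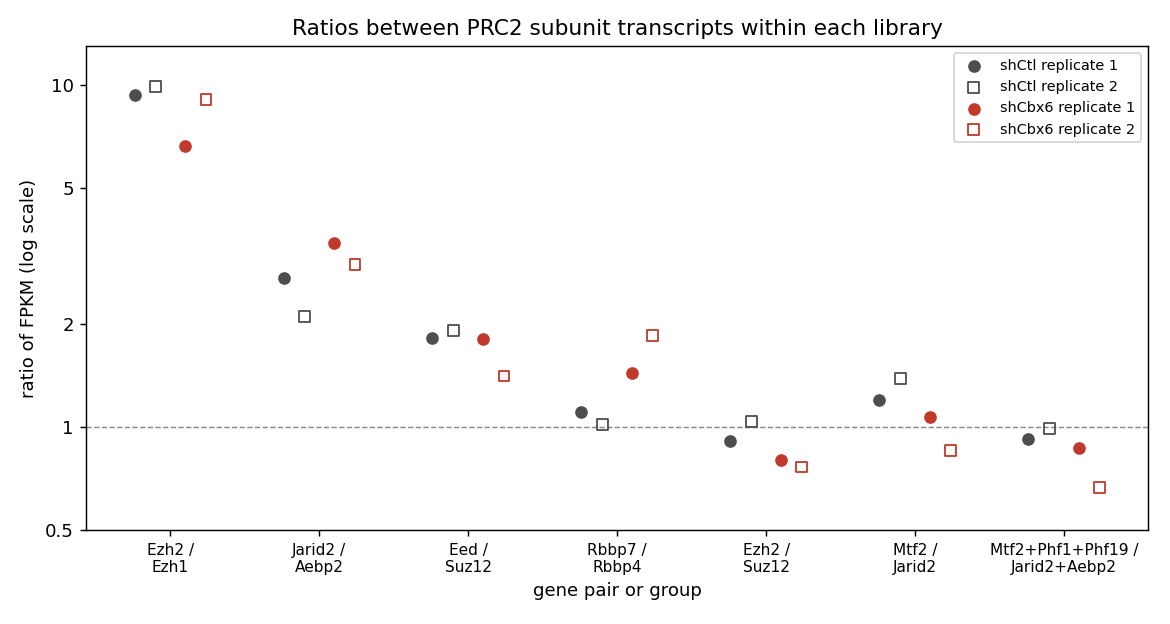
Ratios of FPKM between PRC2 genes within each library (log scale, dashed line at equal levels), with filled circles for replicate 1 and open squares for replicate 2, dark for shCtl and red for shCbx6. Ezh2 is 6.62 to 9.89 times Ezh1 in every library, and the ratio of PCL genes to Jarid2 and Aebp2 runs from 0.989 in shCtl replicate 2 down to 0.664 in shCbx6 replicate 2.

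Among the core genes, Eed was at 1.82 and 1.92 times Suz12 in shCtl and at 1.81 and 1.41 times in shCbx6, whereas Ezh2 was at 0.911 and 1.04 times Suz12 in shCtl and 0.799 and 0.764 times in shCbx6. Rbbp7 and Rbbp4 were nearly equal in shCtl, with ratios of 1.11 and 1.02, and Rbbp7 was at 1.44 and 1.85 times Rbbp4 in shCbx6.

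Other genes of the H3K27 pathway were read from lists of known members. Of 4 other PRC2 partners (Rbbp4, Epop, Lcor and Lcorl), 0 passed the adjusted p. Epop, an ESC-enriched partner of PRC2.1 listed under the older symbol E130012A19Rik, was at 122 and 110 FPKM in shCtl and 91.3 and 78.4 in shCbx6. Both shCbx6 values were lower, with a log2 fold change of -0.45 (interval -0.85 to -0.05) and an adjusted p of 0.381. Of the 3 H3K27 demethylases, 0 passed. Kdm6a was at 17.5 and 16.9 FPKM in shCtl and 15.9 and 15.8 in shCbx6 (adjusted p = 0.797), and Kdm6b at 6.15 and 6.69 FPKM in shCtl and 4.29 and 6.43 in shCbx6 (adjusted p = 0.71). The H3K27 acetyltransferases Ep300 and Crebbp had log2 fold changes of 0.01 and -0.13.

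Enzymes of the marks that oppose PRC2 were also read. Of 5 H3K36 and 6 H3K4 methyltransferases, 0 passed the adjusted p, and 1 of each was lower by at least 1.5-fold (6.56% of all genes) with groups that did not overlap (24.4%). Setd2, which places H3K36me3 over transcribed genes, was at 21.6 FPKM in both shCtl libraries and at 13.4 and 14.9 in shCbx6, a log2 fold change of -0.58 (SE 0.133, adjusted p = 0.231). Kmt2c, listed as Mll3, was at 7.57 and 6.51 FPKM in shCtl and 4.52 and 4.11 in shCbx6, a log2 fold change of -0.60 (SE 0.149, adjusted p = 0.249). In mean FPKM, Setd2 was 1.52-fold and Kmt2c 1.63-fold lower, beside 1.53-fold for Phf19. Of the 4 KDM5 genes related to Jarid2, 3 were tested and 0 passed. The 10 proliferation genes, a group with which the levels of Ezh2 are known to move, had a median log2 fold change of -0.08 and a range of -0.16 to 0.07, and 0 passed.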

How the data were processed

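Mouse E14Tg2A ESCs were profiled by RNA-seq (2 shCtl and 2 shCbx6 libraries) and ChIP-seq (CBX6-3×HA in 2 replicates, CBX7 and RING1B). Read pairs of the RNA-seq were mapped by the authors with TopHat on build mm9 (unique hits kept), and the deposited values are FPKM from Cufflinks, in 23290 entries under 23288 symbols (the repeated ones are dates, of which the entry with the higher mean was kept). For ChIP-seq, the authors aligned reads with Bowtie and called peaks per sample with MACS, and the deposited score of a peak is used within its own list only. Versions, and whether counting used the strand, are not given in the sources used here. Antisense genes that overlap Ezh2, Suz12, Rbbp7, Jarid2, Mtf2 and Phf19 can therefore add to their values.

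FPKM holds no read totals. Relative depth was taken from the most frequent ratio between libraries among low genes. Limma (version 3.58.1, R 4.3.3; lmFit, eBayes with trend, two-sided) was fitted to log2(FPKM + 1) for the 11592 genes whose mean reached 1 FPKM in shCtl or in shCbx6, with Benjamini-Hochberg adjustment. Fold changes on this scale understate the change of low genes such as Phf1 and Phf19. Tested on simulated data for shCbx6 against shCtl with 11592 genes, the fit recovered 14.9% of 2-fold, 82.1% of 4-fold and 93.9% of 8-fold changes. Recovery was not tested separately at the low levels of Phf1 and Phf19, so these shares cannot be carried over to them. The replicates are not stated to be separate infections, so p-values measure the spread between these libraries, which may be technical. The 1.5-fold limit follows the methods of the study. The counts of genes past it here are higher than those the study reported, so they are not its calls.

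Genes were placed on mm9 with GENCODE M1 (21951 of 23288 symbols, 802 through a synonym), and a peak counted from 2500 bp upstream of the start to the transcription end with an overlap of 1 bp. No peak extended past the end of a chromosome of this build. Upstream sequences came from the mm9 genome. All 10 members are named. Of the other genes in the pathway lists, Rbbp4, Epop, Kdm6a and Kdm6b are named by rule, together with genes past 1.5-fold whose groups did not overlap or with an adjusted p under 0.05. Lcor, Lcorl, Ep300 and Crebbp are named outside that rule, to complete lists of at most 4 genes. Members and lists were chosen with earlier results of these data known. Entries that carry dates in place of symbols (25) were not matched to genes.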

Additional observations from a re-analysis of the deposited data

How the results depend on the processing

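No PRC2 gene passed an adjusted p of 0.05 under any alternative of the limma fit, with adjusted p between 0.12 and 0.994, and 94 of 100 estimates kept their direction. The others turned sign when 1 library was left out, with log2 fold changes from -0.05 to 0.16 for Ezh1 (below 0 without shCtl replicate 1, -0.03, and without shCbx6 replicate 1), -0.07 to 0.20 for Suz12 (below 0 without shCbx6 replicate 2), -0.39 to 0.12 for Aebp2 (above 0 without shCbx6 replicate 1) and -0.51 to 0.17 for Phf1 (above 0 without shCtl replicate 1, 0.04, and without shCbx6 replicate 2). The count of all genes past the adjusted p, 11, was 17 with a pseudocount of 0.1, 2 without the filter on low FPKM, and 19 to 398 with 1 library left out, the highest without shCbx6 replicate 1. Where 1 library is left, it is assumed to vary like the other group. With the replicate number as a block it was 388, and the members' adjusted p was 0.12 to 0.841. The deviations of same-numbered libraries correlated at 0.266, but with 2 pairs and no stated source the libraries share only a number.

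The count of PRC2 genes higher by 1.5-fold, 1, was 0 with median-of-ratios scaling, with geometric means, with a limit of 2-fold, and with 1 library left out ranged from 0 to 1. That of genes lower by 1.5-fold, 1, was 0 with geometric means and with a limit of 2-fold, and ranged from 0 to 1 with 1 library left out. Without shCbx6 replicate 1 the 1 gene was Phf1 (1.75-fold lower) and not Phf19. Over all genes, 885 higher and 761 lower became 589 and 494 with geometric means, 439 and 268 at 2-fold, 3739 and 2357 without the filter, and 632 to 1414 and 850 to 1179 with 1 library left out. Members with a CBX6 replicate 2 peak numbered 0 for scores of at least 100 (11.4% of all and 5.86% of expressed genes). Members with a CBX6 replicate 1 peak numbered 1 for peaks shared by both replicates (Mtf2), against 14.1% of all and 10.3% of expressed genes. With 5 kb upstream they numbered 10, which adds Rbbp7, against 58.0% of all and 80.5% of expressed genes. The cause of these moves was not tested. With 2 libraries a group, most changes of 2-fold would not be called.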
